A study of Caenorhabditis elegans with 6 samples.

Results

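The C-type lectin genes of Caenorhabditis elegans, whose symbols begin with clec, were followed in whole worms exposed to the slow hydrogen sulfide donor GYY4137. Members were the probe sets of an Affymetrix worm array whose annotated gene symbols were all clec symbols. There were 251 such probe sets among the 22625 on the array, covering 230 genes. Of these, 236 carried 1 symbol and 15 carried several clec symbols, and 220 genes had a probe set of their own.

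The study set 3 control arrays beside 3 arrays of worms given 100 uM GYY4137. Both groups were of the N2 (Bristol) wild-type strain, labelled as L4 larvae and taken as whole animals, and no other treatment is named for either group. The exposure lasted 48 h in liquid medium and a further 12 h on plates, while the sources used here do not say how the controls were handled over those hours. The labels do not state whether replicates came from different cultures, and the p-values therefore describe the scatter of these 6 arrays, possibly of a technical kind.

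C-type lectin-like domain proteins carry a compact, disulfide-bonded fold that in many animal lectins binds sugars in the presence of calcium, although a worm gene in the family need not encode a sugar binder. Many are secreted and made in the intestine, the tissue that meets swallowed bacteria, and transcripts of different members change with different pathogens in the worm. Several members depend on the PMK-1 p38 MAP kinase pathway, and a few act outside immunity, for example in axon outgrowth.

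The array of GYY4137 replicate 3 was unlike the rest over all tested probe sets. Across the 8053 tested probe sets its Pearson correlations with the other 5 arrays ran from 0.940 to 0.965, against 0.979 to 0.993 among those 5. The counts of calls, and the members that lean most on this array, are therefore given with and without it. The 6 arrays had 7723 to 8050 probe sets above a log2 value of 4, the level used here as the floor. Markers of the intestine, the main tissue of many lectins, were mostly above it: act-5 and vha-6 had control means of 9.33 and 8.07, while the intestinal factor elt-2 (3.35) lay under the floor. Yolk genes of the adult intestine were also high, with a control mean of 12.75 for vit-4, although the label is L4.

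Most of the family was not measurable. A probe set was tested when it exceeded the floor on 3 or more arrays, and 38 of 251 members did (15.1%), against 35.7% of all probe sets other than the array's controls. These 38 comprised 35 probe sets for 30 single genes and 3 with several symbols. Of the 38, 33 were above the floor on all 6 arrays. The clec-7 and clec-173 probe sets passed with 3 arrays each, for clec-7 control replicate 2 with GYY4137 replicates 1 and 2, and for clec-173 control replicate 3 with GYY4137 replicates 2 and 3. Of the 213 untested members, 210 were under the floor on every array, and the highest value any of them reached was 4.34. The number of members above the floor was 35 to 37 on the control arrays and 37 to 39 on the GYY4137 arrays.

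After GYY4137, 5 lectin genes rose and 0 fell: clec-62, clec-48, clec-85, clec-41 and clec-180. That is 5 of 38 tested probe sets raised (13.2%) and 0 lowered, where limma with Benjamini-Hochberg adjustment called 1.09% of all tested probe sets raised and 0.41% lowered at an adjusted p under 0.05. At an unadjusted p under 0.05, 17 members were higher and 1 was lower, against 9.2% and 8.52% of all tested probe sets. In 18 of the 38 every GYY4137 array was above every control array (47.4%), and in 2 every one was below, against 13.4% and 15.6% of all tested probe sets. The median log2 difference over the 38 was 0.37, with 33 above 0, while over all tested probe sets it was -0.04 with 42.9% above 0. In RNA from whole worms, a change in the amount of a tissue and a change in transcript per cell cannot be told apart.

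The clec-62 probe set (194056_s_at, gene on chromosome II) read 5.79, 5.83 and 5.66 on the control arrays and 6.89, 7.02 and 7.32 on the GYY4137 arrays. The lowest exposed array stood more than 1 log2 unit above the highest control. The difference was 1.32 ± 0.14 (standard error, n = 3 per group, 2.49-fold, limma adjusted p = 0.00904), which ranked 19 by p among the 8053. The suffix of this probe set marks it as able to bind transcripts of related genes as well, and their part in the signal was not tested.

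The clec-48 probe set (193800_at, chromosome V) read 6.46, 6.49 and 6.61 in controls and 7.54, 7.42 and 7.71 after exposure. The groups were far apart and both were tight. The difference was 1.04 ± 0.12 (2.06-fold, limma adjusted p = 0.0132, rank 23), on a probe set without a suffix for shared binding. A further probe set annotated to both clec-49 and clec-48 read 7.95, 7.95 and 8.13 in controls and 8.53, 8.95 and 8.89 in exposed worms, and missed the threshold narrowly (0.78 ± 0.14, limma adjusted p = 0.0507).

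Clec-85 is a known transcriptional target of the PMK-1 pathway and is induced by infection with Pseudomonas aeruginosa. Its probe set (173144_at, chromosome IV) read 5.61, 5.78 and 5.46 in controls and 6.79, 6.61 and 7.42 in exposed worms. The highest value was on GYY4137 replicate 3, and the other exposed arrays were still above every control. It rose by 1.32 ± 0.22 (2.50-fold, limma adjusted p = 0.0379).

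Clec-41 has been studied in the defence against Bacillus thuringiensis. Its probe set (189915_s_at, chromosome V) read 6.55, 6.69 and 5.99 in controls and 7.50, 7.73 and 8.23 in exposed worms. It had the widest spread of the 5 raised genes in the control group (SD 0.37), and the groups did not overlap. It rose by 1.41 ± 0.24 (2.66-fold, limma adjusted p = 0.0439), again on a probe set open to related transcripts.

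Clec-180 lay near the floor. Its probe set (192712_at, chromosome IV) read 4.17, 4.18 and 4.20 in controls and 4.69, 4.80 and 4.99 after exposure. The controls lay just above the floor, so the size of the change is uncertain, and it was the smallest rise of the 5 at 0.64 ± 0.12 (1.56-fold, limma adjusted p = 0.0480).

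**Figure D1:**
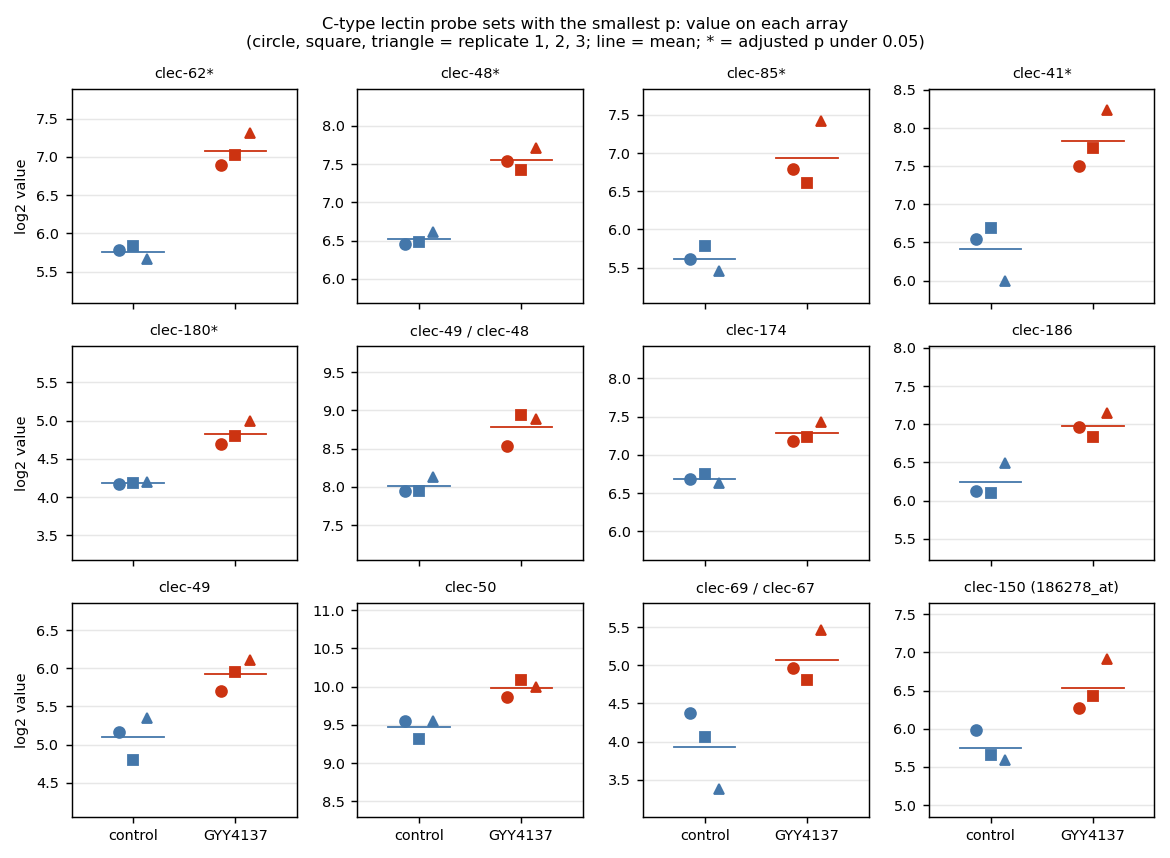
Log2 value on each array (vertical axis) for the 12 tested C-type lectin probe sets with the smallest p, with control arrays in blue, GYY4137 arrays in red, a marker shape per replicate and a line at each group's mean. In all 12 the exposed arrays lie above the controls, and GYY4137 replicate 3 (triangle) is the highest array for clec-62, clec-48, clec-85, clec-41 and clec-180.

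All 5 calls rested on having the full set of controls. Leaving out control replicate 1, 2 or 3 left 0 members raised by limma, where 0.0993%, 0.137% and 0.161% of all tested probe sets were. In each case 15 members were higher at an unadjusted p under 0.05. The share of all tested probe sets at that level was not computed for these fits, so this count does not show a trait of the family. Meanwhile the differences themselves moved little: over the 6 fits that each left out an array they ran from 1.20 to 1.41 for clec-62, 0.97 to 1.11 for clec-48, 1.08 to 1.49 for clec-85, 1.20 to 1.57 for clec-41 and 0.56 to 0.71 for clec-180. Clec-62 and clec-48 kept an adjusted p under 0.05 without GYY4137 replicate 1 (limma adjusted p = 0.0194 and 0.0391) and without GYY4137 replicate 2 (0.0467 and 0.0430), and the other 3 did not. In these fits 3 and 2 members were raised, against 0.596% and 0.211% of all tested probe sets. Without GYY4137 replicate 3, 11 members were raised and 1 was lowered, where 3.04% and 1.69% of all tested probe sets were. The added members were clec-174, clec-186, clec-67, clec-49, the 186278_at probe set of clec-150, the probe set shared by clec-49 and clec-48, and, in the lowered direction, clec-5. In that fit 20 of 38 members had every exposed array above every control and 4 every one below, against 17.6% and 20.6% of all tested probe sets.

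With array weights, which let limma count a deviating array for less, 18 members were raised and 2 lowered, against 8.77% and 8.48% of all tested probe sets. With an intensity trend 8 were raised (background 1.39%), and with no filter on low values clec-48 alone was (1 of 251, background 0.0931%). The count was 6 with a floor of 6, with quantile normalization or with median centring, where the backgrounds were 1.56%, 1.42% and 1.49%. Clec-180 was not among the 6 with quantile normalization (limma adjusted p = 0.0539) and was not tested with the floor of 6, while the other 4 raised genes kept their calls in all 3 fits. Among the 20 members without a suffix for shared binding 3 were raised (background 1.24%), and counted by gene 5 of 30 were (background 1.17%).

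**Figure D2:**
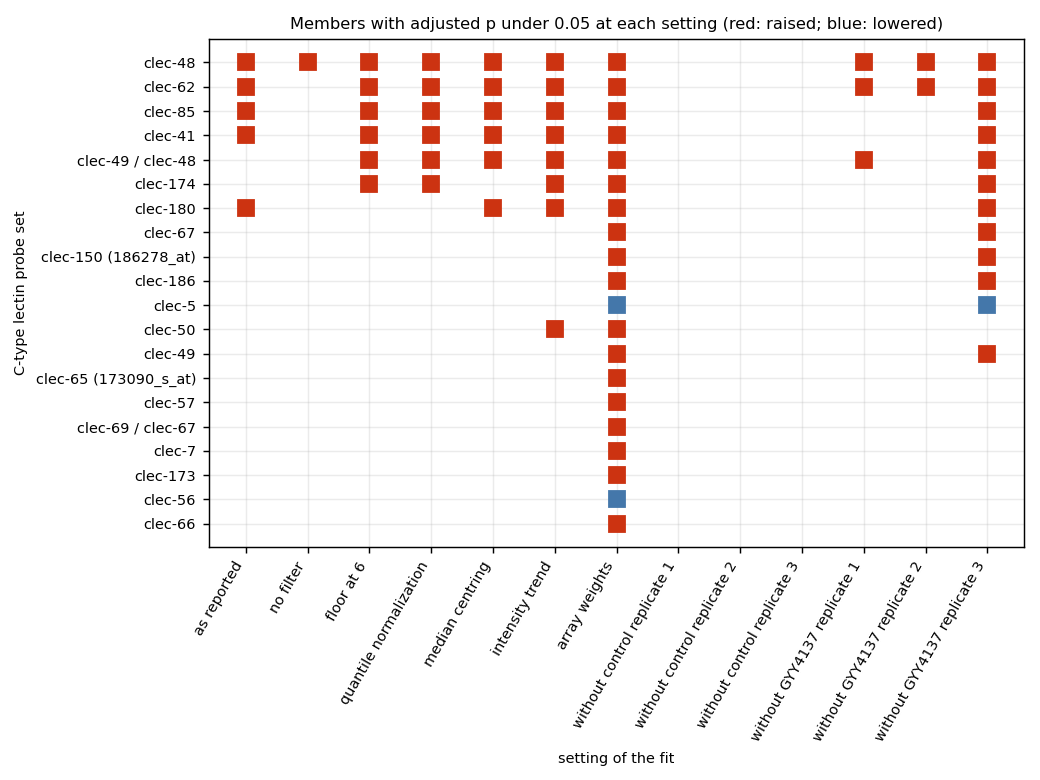
C-type lectin probe sets (vertical axis) with an adjusted p under 0.05 at settings of the limma fit (horizontal axis), with red squares for raised and blue for lowered members. The replicate block, the members without shared-binding suffixes and the count by gene are not shown. The columns for the 3 fits that leave out a control array are empty, and clec-48 is the member with a square in the no-filter column.

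The next members by p did not pass, although their groups did not overlap. Clec-174 (chromosome IV, on a probe set open to related transcripts) read 6.69, 6.74 and 6.63 in controls and 7.19, 7.23 and 7.43 in exposed worms, a difference of 0.59 ± 0.11 (limma adjusted p = 0.0574). Clec-186 (chromosome IV) read 6.13, 6.11 and 6.50 against 6.97, 6.83 and 7.15, a difference of 0.74 ± 0.15 (limma adjusted p = 0.0701). The gap between the groups exceeded the range within either group for clec-174, whereas for clec-186 it was smaller than the range of the controls. Clec-49 is needed, with clec-39, for normal survival of worms on Serratia marcescens. It read 5.16, 4.80 and 5.36 in controls and 5.70, 5.94 and 6.11 in exposed worms, a difference of 0.81 ± 0.18 (limma adjusted p = 0.0823). Its probe set is open to related transcripts.

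Further down the order, clec-50 read 9.55, 9.31 and 9.55 in controls and 9.87, 10.08 and 9.99 in exposed worms (0.51 ± 0.12, limma adjusted p = 0.102). Its 95% interval, 0.23 to 0.79, excluded 0 before adjustment. Clec-66 differed by 0.69 ± 0.24, clec-63 by 0.39 ± 0.15 and clec-83 by 0.35 ± 0.16, and the limma adjusted p of these 3 lay between 0.216 and 0.314. The clec-50 and clec-83 probe sets can also bind related transcripts. For clec-63, the values were 10.54, 10.08 and 10.57 against 10.82, 10.73 and 10.80, so that the exposed arrays were tightly grouped just above the controls.

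**Figure D3:**
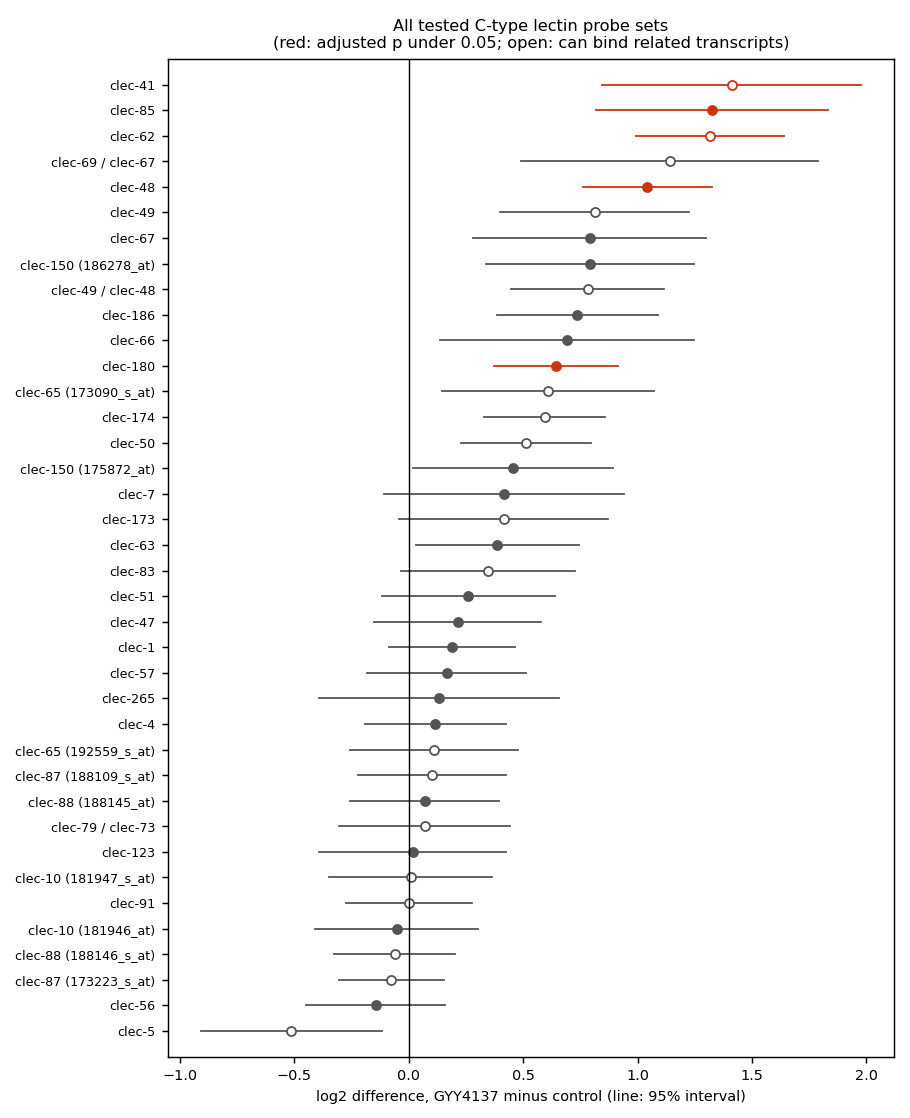
Log2 difference, GYY4137 minus control, with its 95% interval (horizontal axis) for all 38 tested C-type lectin probe sets, ordered by size, with the 5 called in red and open markers where related transcripts can also bind. The differences run from -0.51 for clec-5 to 1.41 for clec-41. Of the 38, 33 lie above 0, against 42.9% of all tested probe sets.

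C-type lectin genes often sit side by side in the worm genome, and members above and below the floor stood next to each other. By gene order in the RefSeq annotation, 143 of 264 clec genes stood next to another with no other protein-coding gene between them, in 45 rows, and 9 rows held a tested member. The row clec-62, clec-63, clec-64, clec-65, clec-66 on chromosome II held the called gene clec-62 and 3 others measured above the floor. Clec-64, in the middle of it, was at 2.75 in controls and 2.78 in exposed worms, under the floor in both groups. The differences of the tested genes in this row were 1.32 (clec-62), 0.39 (clec-63), 0.61 and 0.11 (the probe sets of clec-65) and 0.69 (clec-66), all on the log2 scale and all but the first without passing.

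On chromosome IV, clec-67 and clec-174 stood at the ends of a row of 6 genes. Clec-67 differed by 0.79 ± 0.22 and clec-174 by 0.59 ± 0.11, while clec-69, clec-70 and clec-71 between them had control means of 2.44, 2.52 and 2.36, below the floor. On chromosome V, clec-49 and clec-50 formed a pair, with differences of 0.81 and 0.51. Each was read by a probe set open to related transcripts, whose part in these values was not tested. In a row of 5 on the same chromosome, clec-57 and clec-56 were measured on their tested probe sets and differed by 0.17 ± 0.15 and -0.15 ± 0.13, with limma adjusted p of 0.546 and 0.550.

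**Figure D4:**
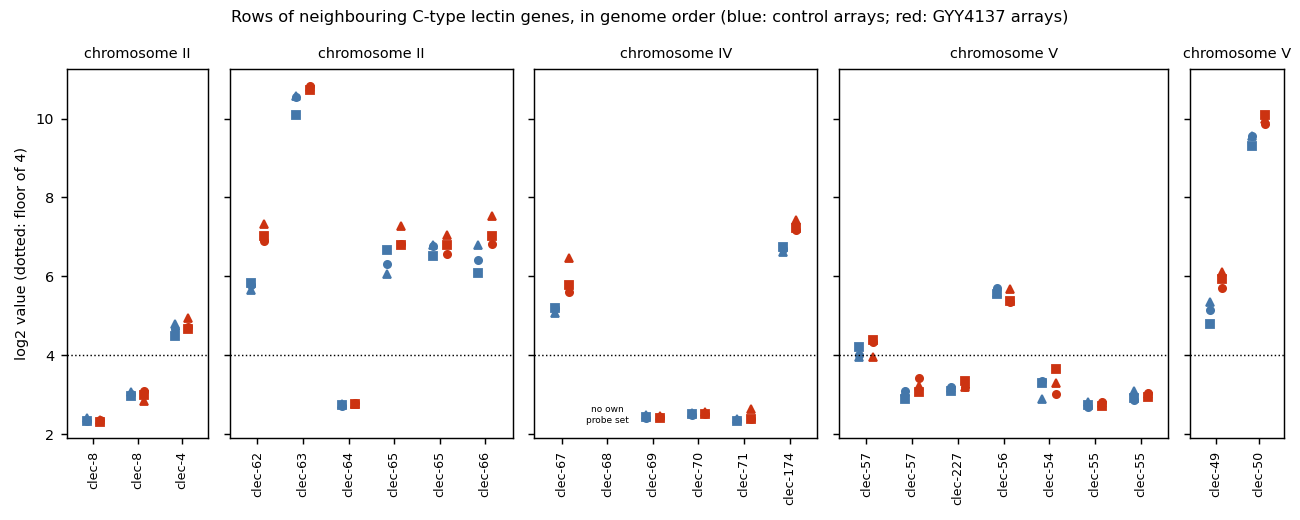
Log2 value on each array (vertical axis, dotted line at the floor of 4) for 5 rows of adjacent C-type lectin genes in genome order, with control arrays in blue and GYY4137 arrays in red and each probe set of a gene shown in its own column. In the row from clec-62 to clec-66, clec-64 lies under the floor while its neighbours lie between 5.66 and 10.82.

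Genes read by more than 1 tested probe set gave a check on each value. For clec-150 (chromosome III), 186278_at read 5.99, 5.66 and 5.58 in controls and 6.27, 6.43 and 6.91 in exposed worms (0.79 ± 0.19, limma adjusted p = 0.113), and 175872_at read 7.38, 7.32 and 7.31 against 7.55, 7.60 and 8.22 (0.46 ± 0.19, limma adjusted p = 0.268). Both had every exposed array above every control. For clec-65 the probe sets disagreed. The 173090_s_at probe set differed by 0.61 ± 0.20 with groups that did not overlap, and 192559_s_at by 0.11 ± 0.16 with groups that did. Both can bind related transcripts.

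Clec-67, an infection-response member, read 5.20, 5.19 and 5.09 in controls and 5.60, 5.79 and 6.47 in exposed worms on 181565_at (0.79 ± 0.22, limma adjusted p = 0.144). The probe set shared by clec-69 and clec-67 read 4.37, 4.06 and 3.38 in controls and 4.96, 4.80 and 5.46 in exposed worms (1.14 ± 0.28, limma adjusted p = 0.111). Both showed the exposed arrays above the controls, and the shared probe set had 1 control array under the floor. Clec-87 and clec-88 were read by 2 tested probe sets each, and all 4 differences lay between -0.08 and 0.10. Clec-10 also had 2, 181946_at at -0.05 and 181947_s_at at 0.01, both with overlapping groups.

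Clec-5 had the most negative difference of the 38. Its probe set (190499_s_at, chromosome III) read 6.61, 6.43 and 6.38 in controls and 5.74, 5.83 and 6.31 in exposed worms. The third exposed array lay just under the lowest control and the other exposed arrays well under it. The difference was -0.51 ± 0.17 (limma adjusted p = 0.205), and without GYY4137 replicate 3 it was -0.69 (limma adjusted p = 0.0116). The other member whose exposed arrays were all below the controls was the 173223_s_at probe set of clec-87, with controls at a mean of 11.02 and exposed arrays at 10.98, 10.90 and 10.95, a difference of -0.08 with a 95% interval of -0.31 to 0.15.

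Several strongly hybridising members showed little difference, but not all. Clec-50, clec-63 and the probe set shared by clec-49 and clec-48 were also high, with differences of 0.51, 0.39 and 0.78. Clec-91 read 8.87, 8.56 and 8.73 in controls and 8.70, 8.69 and 8.77 in exposed worms, a difference of 0.00 ± 0.12 with a 95% interval of -0.28 to 0.28. The clec-88 probe set 188146_s_at differed by -0.06, with an interval of -0.32 to 0.20. Both intervals lie below 0.64, the smallest difference among the 5 raised genes. Clec-4, whose loss alters how worms behave towards pathogenic bacteria, lay nearer the floor. It read 4.67, 4.50 and 4.81 in controls and 4.72, 4.66 and 4.94 in exposed worms. Its groups overlapped, and the difference was 0.12 with an interval of -0.19 to 0.42.

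Some members known from infection work were under the floor throughout. Clec-60 and clec-61, induced by Gram-positive pathogens such as Staphylococcus aureus, had control means of 2.56 and 2.77 and exposed means of 2.52 and 2.77. Clec-39, the partner of clec-49 in defence against Serratia, was at 2.68 and 2.71, and clec-38, which acts in axon outgrowth, at 2.20 and 2.21. These values give no firm level, and they do not settle whether such transcripts changed.

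A few untested members differed below or across the floor. Clec-42, like clec-41 a gene of the Bacillus thuringiensis response, read 2.39, 2.28 and 2.31 in controls and 2.62, 3.11 and 3.52 in exposed worms. Clec-17, chosen after its values were seen, read 3.39, 3.19 and 3.27 against 3.85, 3.96 and 4.22. In both, the exposed arrays were all above the controls, but only the third exposed array of clec-17 exceeded the floor. Besides these, 1 of the 213 untested members differed by more than 0.5, clec-86 at 0.53 with overlapping groups, also chosen after its values were seen, and none by less than -0.5. The median difference over the 213 was 0.01.

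GYY4137 replicate 3 was the highest exposed array for 28 of the 38 tested members and the highest of all 6 for 23. The same shares over all tested probe sets were not computed, so these counts do not show a trait of the family. The medians do have a background. For each probe set, the mean of the other exposed arrays was subtracted from replicate 3. The median of these differences was 0.28 over the members, against -0.03 over all tested probe sets. Each array's value minus the probe set's control mean had a median over the members of 0.25, 0.30 and 0.50 on GYY4137 replicates 1, 2 and 3. By this measure the other exposed arrays also lay above the controls, whose medians were between -0.03 and 0.03. Clec-265 (chromosome X) showed the largest gap between replicate 3 and the others among tested members. It read 6.24, 6.39 and 6.19 in controls and 6.26, 6.03 and 6.93 in exposed worms, so its difference of 0.13 became -0.13 without that array. Leaving the array out took clec-67 from 0.79 to 0.53, clec-66 from 0.69 to 0.49 and the 175872_at probe set of clec-150 from 0.46 to 0.24. Clec-85 went from 1.32 to 1.08 and clec-41 from 1.41 to 1.21.

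**Figure D5:**
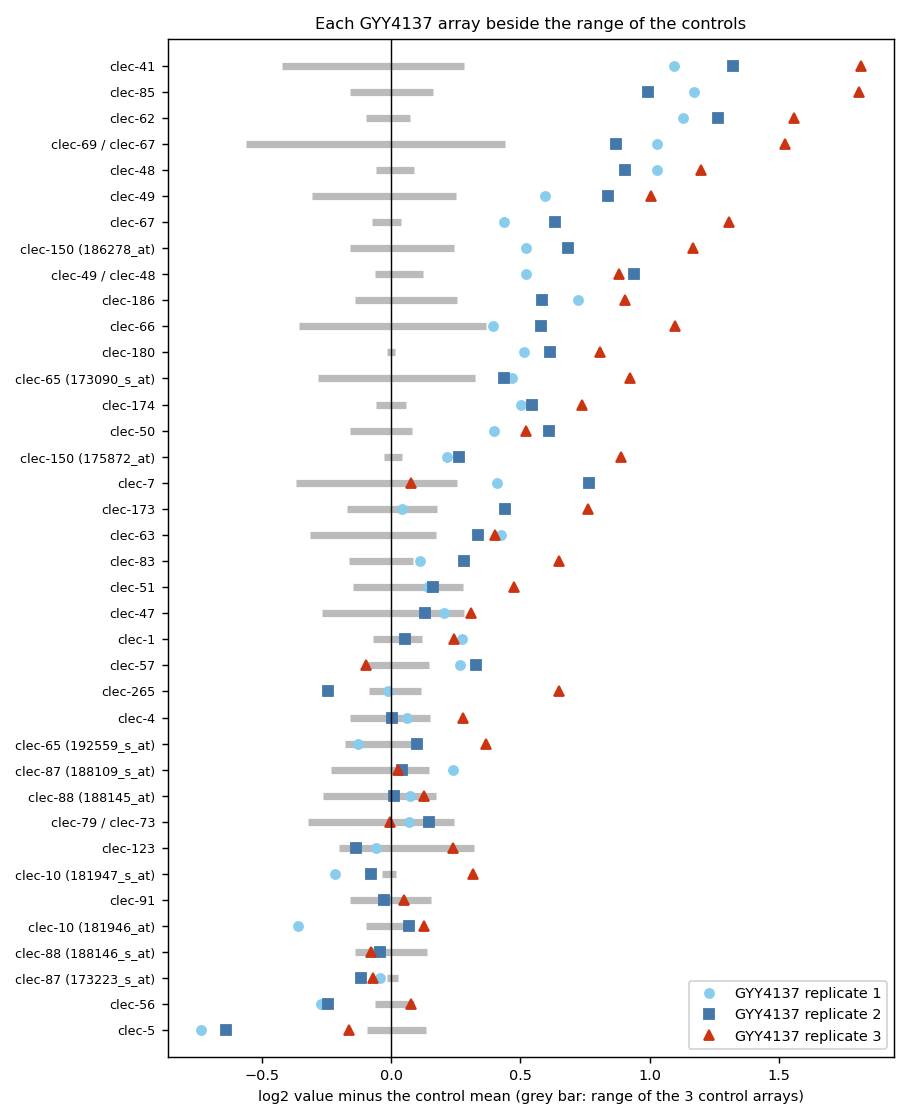
Log2 value of each GYY4137 array minus the control mean (horizontal axis) for the 38 tested C-type lectin probe sets, with a grey bar for the range of the 3 control arrays. GYY4137 replicate 3 (red triangle) is the highest of the exposed arrays for 28 members, a share not computed over all tested probe sets. All 3 exposed arrays lie above the grey bar for 18 of the 38, against 13.4% of all tested probe sets.

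Of 22 immune signalling genes chosen, 20 had a probe set of their own and 10 were tested. By limma 0 of the 10 were raised or lowered, against 1.09% and 0.41% of all tested probe sets. At an unadjusted p under 0.05, 2 were higher and 0 lower, against 9.2% and 8.52%. The median difference was 0.03. The p38 kinase gene pmk-1 and its activator sek-1 were not tested, the first being under the floor on every array. The adaptor gene tir-1, upstream of that kinase, differed by -0.22 ± 0.11, and atf-7, a transcription factor under PMK-1, by -0.03 ± 0.13. The zinc finger factor pqm-1 (0.61 ± 0.12, limma adjusted p = 0.0663) and zip-2, a bZIP factor of the Pseudomonas response (0.42 ± 0.11, limma adjusted p = 0.119), had the smallest p in this list. Pqm-1 passed with a floor of 6, with median centring, with array weights and without GYY4137 replicate 3, and zip-2 with array weights.

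Galectins, sugar-binding proteins with a different fold, had 1 raised gene of 11 tested and 0 lowered (median difference 0.15), where 1.09% of all tested probe sets were raised and 0.41% lowered. This was lec-8, which binds glycolipids in the worm gut, with a mean of 8.08 ± 0.10 (SD, n = 3) in controls and 8.93 ± 0.20 in exposed worms (0.85 ± 0.14, limma adjusted p = 0.0363). Its call ended without any 1 control array or without GYY4137 replicate 1 or 2, where the difference was 0.79 to 0.92, and also with no filter on low values (limma adjusted p = 0.107). Lec-10 differed by 0.45 ± 0.14 (limma adjusted p = 0.175).

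Median differences of the tissue marker lists ran in both directions, with 0 of the members of each of these lists passing by limma. Of all tested probe sets, 42.9% had a difference above 0. The 4 body wall muscle markers were all lower (median -0.50). Their mean log2 value ran from 7.83 to 8.10 on the control arrays and from 7.35 to 7.76 on the exposed arrays. The 8 oocyte and eggshell markers were all lower (median -0.31, means of 8.72 to 8.83 against 8.30 to 8.56). Of 7 tested sperm markers 6 were higher (median 0.50). The sperm means, 5.56 to 5.65 against 5.89 to 6.08, also take in spe-9, which was under the floor and not tested. The 5 tested intestinal markers had a median of 0.06. With elt-2, under the floor and not tested, the 6 intestinal genes had overlapping means of 6.66 to 6.71 and 6.63 to 6.83. Neuron, hypodermis, pharynx and yolk lists had medians of 0.23, 0.35, -0.14 and -0.07. At an unadjusted p under 0.05 there were 3 lower muscle, 4 lower oocyte and 5 higher sperm markers, where 8.52% of all tested probe sets were lower and 9.2% higher. Without GYY4137 replicate 3, 3 muscle and 1 oocyte marker passed as lower and 2 sperm markers as higher, against 1.69% and 3.04% of all tested probe sets. The part of these tissues in the lectin results was not tested.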

How the data were processed

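RNA of 6 whole-worm samples, 3 control and 3 GYY4137, was hybridised to Affymetrix C. elegans arrays. The log2 values were deposited by the authors, 1 per probe set and array, and made with GCRMA per the submitters' processing notes. They run from 1.88 to 13.3, and the version is not given in the sources used here. Gene names came from the platform annotation, checked against RefSeq (assembly WBcel235, used only for names, chromosomes and gene order), where 100% of member probe sets matched.

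Probe sets above 4 on 3 or more of 6 arrays were tested, 77 Affymetrix controls left out, which gave 8053. The difference between groups was estimated by a two-sided limma fit (version 3.58.1, R 4.3.3, lmFit then eBayes without trend), with Benjamini-Hochberg adjustment over all 8053 and a threshold of 0.05. The fit was tested on simulated data. Each ± beside a difference is the fit's standard error. The number of arrays limits the precision.

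The members, gene lists and tests were chosen with earlier results of these data known. Named members were those called; the others with groups that do not overlap, up to 14 higher and 10 lower; the 8 with the highest mean; 10 genes known from other work; and the 6 with GYY4137 replicate 3 farthest from the other exposed arrays. Listed genes were represented by their probe set with the highest mean. Alternatives were other floors, an intensity trend, array weights, median centring, quantile normalization, a replicate block, each array left out, members without shared-binding suffixes and counting by gene.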

Additional observations from a re-analysis of the deposited data

How the results depend on the processing

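With the settings as reported, 5 lectin probe sets were raised and 0 lowered. The raised count was 6 with a floor of 6, with quantile normalization or with median centring, and 5 by gene. It was 1 with no filter (clec-48), 8 with an intensity trend, 18 with array weights (and 2 lowered), 2 with the replicate block and 3 among members without a shared-binding suffix. It ran from 0 to 11 with each array left out, and the lowered count from 0 to 1. Clec-180 was not tested with a floor of 6, being under it. Over all tested probe sets 88 were raised and 33 lowered as reported, 21 and 12 with no filter, 58 raised at floor 6, 706 and 683 under array weights, 51 raised with the replicate block, and 8 to 245 raised and 4 to 136 lowered with each array left out. The family's median difference was 0.014 over all 251 members with no filter, where most are under the floor. It ran from 0.24 to 0.44 under the other floor, both normalizations, the trend, the weights, the block and each array left out, and was not computed by gene or for members without a shared-binding suffix. The cause of the other shifts was not tested.

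The labels do not say whether same-numbered arrays were paired. The deviations of same-numbered arrays from their group means correlated at 0.11, -0.02 and 0.05. With 3 arrays per group these values cannot settle pairing, and the block result is given as an alternative. With the block clec-62 and clec-48 were called, against 0.633% of all tested probe sets raised, while clec-85 (limma adjusted p = 0.0752), clec-41 (0.0846), clec-180 (0.0916) and the galectin lec-8 (0.0820) were not. Among named members, signs turned only for differences far from the threshold. Clec-91 was at -0.0509 with quantile normalization, -0.0800 with array weights and from -0.0779 to 0.0779 with each array left out. The clec-88 probe set 188146_s_at was at 0.0122 with median centring and from -0.130 to 0.00808 with each array left out, and 188145_at at -0.0500 with array weights and from -0.0607 to 0.157. The clec-87 probe set 188109_s_at ran from -0.0130 to 0.175 with each array left out. Clec-265 was at -0.180 with array weights and from -0.128 to 0.319 with each array left out. In all, 266 of the named members' values kept direction and side of the threshold, 29 lost and 27 gained a call, and 11 turned sign.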
